A study of Mus musculus with 17 samples.

Results

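The uroplakin genes Upk1a, Upk1b, Upk2, Upk3a and Upk3b were followed through pools of retinal pigment epithelium (RPE) cells, as 5 of the 22253 genes in the deposited count table. The family was chosen by gene symbol after 1 of its members, Upk1b, had been seen to be more abundant in GFP+ cells than in central GFP- cells. What these genes show between those 2 groups is therefore given as a description, without a test. The comparison of peripheral with central GFP- RPE uses none of the GFP+ libraries, and the members were tested there. Its central libraries are the same 6 as in the comparison behind the choice, so that these tests are not fully independent of it.

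The cells came from Serpine3GFP/+ mice at 2 months of age, in which 1 allele of Serpine3, a serpin gene, carries a GFP reporter behind its start codon. All 3 groups share this heterozygous allele, so that no group is free of the reporter or has both copies of the gene intact. The eye cup was cut at its middle line into a peripheral and a central part, RPE sheets were digested to single cells, and cells were picked by hand under a microscope, 10 to 15 per library according to the labels. There were 6 libraries of cells with GFP fluorescence (GFP+ RPE, which the study takes from the periphery), 5 of peripheral cells without it (peripheral GFP- RPE, "ctrl periphery") and 6 of central cells without it (central GFP- RPE, "ctrl center"). Mice 1, 2, 4, 5 and 7 gave a library of each group, mouse 3 a GFP+ library alone and mouse 6 a central library alone. Mouse 1 carries 2 animal numbers and may be a pool of 2 animals.

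Uroplakins are membrane proteins known best from the urothelium, the lining of the bladder, where they pack into rigid plaques that cover the cell surface facing the urine. UPK1A and UPK1B are tetraspanins, proteins that cross the membrane repeatedly, and each leaves the endoplasmic reticulum together with a partner that crosses it once. UPK2 is the partner of UPK1A, and UPK3A or UPK3B is the partner of UPK1B. Upk3b is also a known gene of mesothelium, the lining of body cavities, and Upk1b of the ocular surface epithelium. RPE is the pigmented cell layer behind the photoreceptors, which recycles visual pigment and takes up shed outer segments.

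In the mouse genome build GRCm38 with the GENCODE M21 annotation, the 5 genes lie on 5 chromosomes. Upk1b lies on chromosome 16 from 38773184 to 38800328 on the minus strand and has 8 exons. Upk3b lies on chromosome 5 from 136038496 to 136046487 on the plus strand and has 6 exons. Upk1a lies on chromosome 7 (30603092 to 30612847, minus strand, 8 exons), Upk2 on chromosome 9 (44452715 to 44454976, minus strand, 5 exons) and Upk3a on chromosome 15 (85017141 to 85022547, plus strand, 6 exons). None of the 5 intervals overlaps another annotated gene. No stretch of 31 bases in their transcripts is shared with a transcript of another gene, so that exact matches of that length assign reads to 1 gene. The closest relation by position is Upk3bl (uroplakin 3B-like), not a member here, whose interval starts 8004 bases after the end of Upk3b on the same strand.

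The 250 bases before the start of Upk3b (GRCm38.p6, RefSeq, chr5:136038246-136038495, plus strand) are shown because Upk3b was the member with the most counts, beside those of its neighbour Upk3bl (chr5:136057017-136057266, plus strand), which had counts in every library. The RefSeq start used for the Upk3bl window lies inside the longer interval that GENCODE M21 gives this gene, and no window before the GENCODE start was used. Capitals mark the only match, on either strand, to any of 6 searched motifs: CATGTG, a sequence that MITF and related factors are known to bind, CACGTG, a related sequence, TAATCC, which OTX2 is known to bind, AGATAA of GATA factors, TGACTCA of AP-1, and TATAAA, the TATA box.
Upk3b: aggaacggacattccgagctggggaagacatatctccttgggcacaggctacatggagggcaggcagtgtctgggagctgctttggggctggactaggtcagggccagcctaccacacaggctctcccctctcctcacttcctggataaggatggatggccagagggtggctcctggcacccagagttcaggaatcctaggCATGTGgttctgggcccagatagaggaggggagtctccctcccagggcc
Upk3bl: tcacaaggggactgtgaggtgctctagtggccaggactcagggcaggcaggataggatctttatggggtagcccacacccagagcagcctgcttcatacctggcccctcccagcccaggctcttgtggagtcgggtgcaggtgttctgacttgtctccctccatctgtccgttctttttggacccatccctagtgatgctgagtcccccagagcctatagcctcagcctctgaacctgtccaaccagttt
CATGTG begins 49 bases before the start of Upk3b and is found in 12.3% of the 32851 windows of this length in the same table. None of the 6 motifs is in the Upk3bl window. Over all windows, CACGTG was found in 6.02%, TAATCC in 6.25%, AGATAA in 9.99%, TGACTCA in 4.46% and TATAAA in 12.4%. These matches describe the letters of the windows, and binding was not measured.

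The libraries held 9896118 to 22467079 counts each. CPM below are counts scaled to a common library total, with TMM factors over the 17 libraries. A count of 3, taken as the most that a listed 0 allows and as the floor for detection, corresponded to 0.116 to 0.554 CPM, for counting error only. The mitochondrial share of counts was 0.710% to 17.2% in GFP+ RPE, 12.5% to 30.4% in peripheral GFP- RPE and 13.7% to 47.3% in central GFP- RPE, and therefore moved with the groups; its part in the values below was not tested. The central libraries of mice 4, 5 and 7 stood apart, with the lowest TMM factors (0.700, 0.547 and 0.726). They also had the highest mitochondrial shares (32.4%, 47.3% and 37.0%) and the fewest genes with at least 10 counts (6681, 5392 and 6430). The other libraries had 7966 to 10543 such genes. The part of this in the values below was not tested. Serpine3 itself had 107 to 576 counts in the GFP+ libraries, 5 in the peripheral library of mouse 1 and 0 in the other 10 libraries. Of 12 genes of RPE identity, 11 were above the floor in all 17 libraries, and Best1 had at most 2 counts in any.

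**Figure D1:**
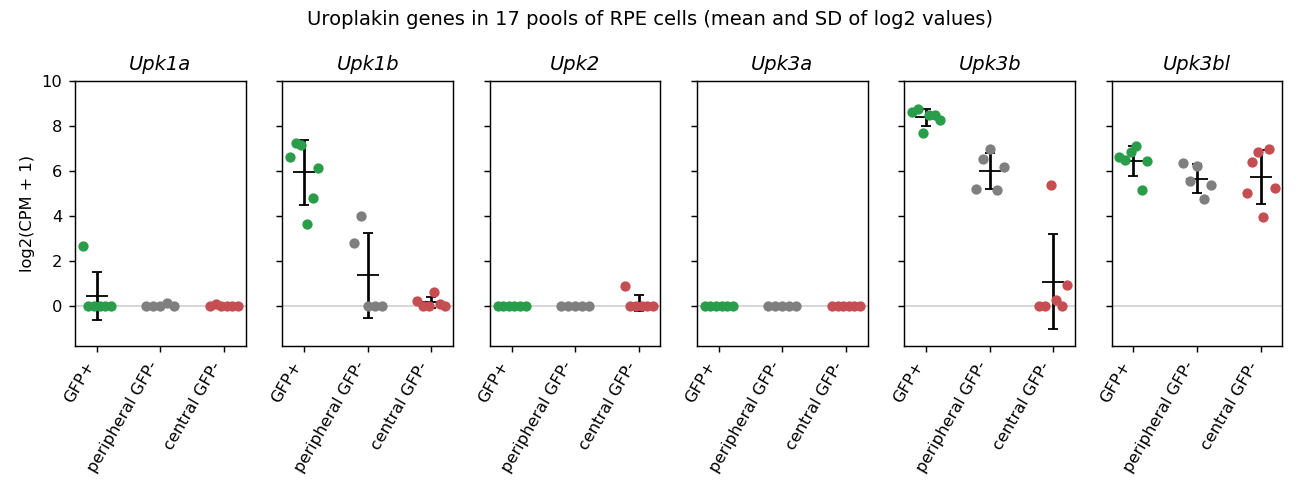
Level of each uroplakin gene and of Upk3bl in every library, as log2(CPM + 1). Points are libraries, the bar is the mean and the whisker the SD of the log2 values in 6 GFP+, 5 peripheral GFP- and 6 central GFP- libraries. Upk3b is high in all GFP+ libraries (203 to 430 CPM), lower in the peripheral ones (35.1 to 125 CPM) and near 0 in 5 of 6 central ones, Upk1b is mainly in GFP+ libraries, and Upk1a, Upk2 and Upk3a are at or near 0 except Upk1a in the GFP+ library of mouse 1 (5.28 CPM).

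Upk3b, the single-pass partner in the pair formed with UPK1B, was the most abundant member. Its counts in the GFP+ libraries of mice 1, 2, 3, 4, 5 and 7 were 10292, 9068, 4564, 4816, 5109 and 6385, or 399, 430, 203, 364, 360 and 304 CPM. In the peripheral GFP- libraries of mice 1, 2, 4, 5 and 7 its counts were 637, 1773, 2604, 442 and 712, or 35.5, 91.9, 125, 35.1 and 70.4 CPM. In the central GFP- libraries of mice 1, 2, 4, 5, 6 and 7 its counts were 0, 0, 401, 1, 0 and 8, or 0, 0, 40.0, 0.185, 0 and 0.887 CPM. All GFP+ libraries lay above all others, all peripheral libraries were well above the floor, and of the central ones only those of mice 4 and 7 were above it. The means were 343 ± 80.8 CPM (SD, n = 6) in GFP+ RPE, 71.6 ± 38.5 CPM (SD, n = 5) in peripheral GFP- RPE and 6.85 ± 16.2 CPM (SD, n = 6) in central GFP- RPE. As each library pools several cells, fewer cells with the transcript and less transcript per cell cannot be told apart.

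Whether Upk3b differs with position among cells without GFP was asked by comparing peripheral with central GFP- RPE. Upk3b was higher in the periphery by 64.8 CPM (two-sided exact permutation test, p = 0.0130), with a peripheral mean 10.5 times the central mean. The test takes libraries as independent, although 5 mice gave both pools, and its p is not adjusted over the 3 members tested. Of the 5 peripheral libraries, 3 lay above every central library, since the central library of mouse 4, at 40.0 CPM, exceeded the peripheral ones of mice 1 and 5. Without this library the central mean was 0.214 CPM and all 5 peripheral libraries lay above the 5 central ones (exact permutation test, p = 0.00794). With scaling to the library total in place of TMM the difference was 69.5 CPM, and all 5 peripheral libraries lay above all 6 central ones (exact permutation test, p = 0.00433, the smallest that 5 against 6 libraries can give). Leaving out each library in turn gave differences of 51.4 to 73.9 CPM, with the highest p, 0.0286, without the peripheral library of mouse 2, 4 or 7 (exact permutation tests).

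The fit across all genes did not call Upk3b between these 2 groups. Its log2 fold change was 3.38 (standard error 1.62; edgeR quasi-likelihood test, adjusted p = 1.00 by the Benjamini-Hochberg method over 9535 genes), and DESeq2 gave 3.41 with an adjusted p of 0.691. A gene was called where its adjusted p was under 0.01 and its log2 fold change beyond 1 in either direction. By these limits edgeR called 0% of the genes tested here, with 257 at an unadjusted p under 0.05; DESeq2 called 29 genes. Groups that do not overlap, with the periphery higher, were found for 0.640% of the genes, and on the TMM scale Upk3b was not among them. The log2 fold change was 8.32 without the central library of mouse 4 (standard error 1.46; edgeR adjusted p = 0.215). It was 7.52 where the mouse entered as a replicate block (standard error 2.00; edgeR adjusted p = 0.996), and neither fit called Upk3b. Upk3b was the only member of the 5 that passed the filter on low counts in this comparison.

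Between GFP+ and peripheral GFP- RPE, Upk3b was higher in GFP+ RPE. Its log2 fold change was 2.31 (standard error 0.34, edgeR quasi-likelihood test, adjusted p = 0.00970). These groups differ in the reporter and may also differ in position within the peripheral part. The paper describes the GFP signal as mainly dorsal in the periphery, and the labels give no finer position for peripheral GFP- cells. The part of position in this difference was not tested. The GFP+ libraries in this comparison are the ones on which the family was selected, so that this is not independent evidence for it. The fit called 0.0396% of 10102 genes, namely Htr3a, Vim, Aplp1 and Upk3b, with 564 genes at an unadjusted p under 0.05, and DESeq2 called 67. The groups did not overlap, with GFP+ RPE higher, for 0.624% of the genes, and Upk3b was 1 of these. The call was narrow in edgeR. It held without the GFP+ library of mouse 3 or the peripheral library of mouse 4, and was lost without any of the other 9, with an edgeR adjusted p of up to 0.0443 and log2 fold changes of 2.14 to 2.59. With the mouse as a replicate block the log2 fold change was 2.57 and edgeR's adjusted p 0.0773. With the animal run as a covariate it was 2.32 and edgeR's adjusted p 0.0161. With all 3 groups in the fit edgeR's adjusted p was 1.00, and none of these fits called Upk3b. On the GFP+ and peripheral libraries alone, without a block, DESeq2 gave an adjusted p of 3.21e-08.

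Pools of the same mouse gave the same order throughout. GFP+ RPE exceeded peripheral GFP- RPE of its own mouse in Upk3b 11.3-fold in mouse 1, 4.69-fold in mouse 2, 2.90-fold in mouse 4, 10.2-fold in mouse 5 and 4.33-fold in mouse 7. Peripheral GFP- RPE exceeded the central pool of its own mouse in 5 of 5 mice, by 3.13-fold in mouse 4 and by 79.4-fold in mouse 7, which had 8 central counts. It was at least 141-fold in mouse 1 and at least 557-fold in mouse 2, where the central count of 0 was set to the floor of 3 counts, and mouse 5 had 442 peripheral counts and 1 central count. The animal numbers fall in 2 runs, and the order held within both. In mice 1 to 3 the GFP+ libraries were at 203 to 430 CPM, the peripheral at 35.5 to 91.9 CPM and the central at 0. In mice 4 to 7 they were at 304 to 364, 35.1 to 125 and 0 to 40.0 CPM.

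**Figure D2:**
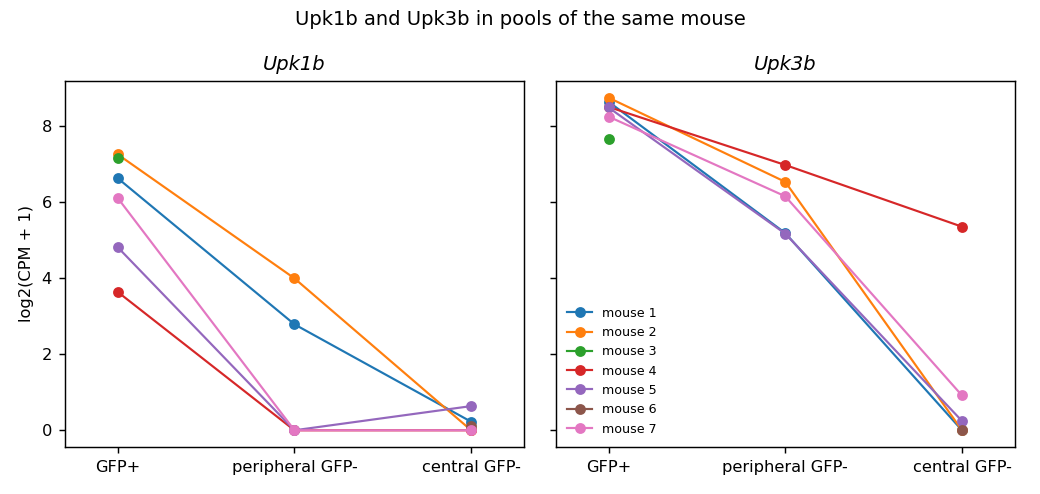
Upk1b (left) and Upk3b (right) as log2(CPM + 1) in pools of GFP+, peripheral GFP- and central GFP- RPE, with a line joining the pools of 1 mouse. Upk3b falls from GFP+ to peripheral to central pools in all 5 mice that have the 3 pools, least in mouse 4; Upk1b falls from GFP+ to peripheral pools in all 5 and is at 0 in the peripheral pools of mice 4, 5 and 7.

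Upk1b, the tetraspanin of the pair, was found mainly in GFP+ RPE and varied more between pools. Its counts in the GFP+ libraries of mice 1, 2, 3, 4, 5 and 7 were 2532, 3209, 3208, 152, 386 and 1430, or 98.2, 152, 143, 11.5, 27.2 and 68.2 CPM. Among peripheral GFP- libraries, that of mouse 1 had 106 counts and that of mouse 2 had 289, or 5.91 and 15.0 CPM, and those of mice 4, 5 and 7 had 0. In central GFP- RPE its counts in mice 1, 2, 4, 5, 6 and 7 were 2, 0, 0, 3, 1 and 0, all at or under the floor. The GFP+ range met the peripheral one, as the GFP+ library of mouse 4 was below the peripheral library of mouse 2, and lay above all central libraries. The means were 83.3 ± 58.4 CPM (SD, n = 6) in GFP+ RPE, 4.18 ± 6.56 CPM (SD, n = 5) in peripheral GFP- RPE and 0.133 ± 0.217 CPM (SD, n = 6) in central GFP- RPE.

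Across the GFP+ libraries the highest level of Upk1b was 13.3 times the lowest, against 2.12 times for Upk3b, and the coefficient of variation was 0.701 against 0.235. The level of Upk1b went with the run in which the animal number falls. The GFP+ libraries of mice 1 to 3 had 98.2 to 152 CPM (mean 131) and those of mice 4, 5 and 7 had 11.5 to 68.2 CPM (mean 35.6), with no overlap. Both peripheral libraries with Upk1b above the floor came from mice 1 and 2, and all 3 peripheral libraries of the other run were at 0. What separates the 2 runs is not given in the labels, and its part in these levels was not tested.

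Between peripheral and central GFP- RPE, Upk1b differed by 4.04 CPM, which 2 of 5 peripheral libraries carried (two-sided exact permutation test, p = 0.364). The difference fell to 1.34 CPM without the peripheral library of mouse 2 (exact permutation test, p = 0.80). The filter on low counts removed Upk1b from the fit. Summed over libraries, 395 peripheral counts stood against 6 central ones, a ratio per scaled total of 55.3 (exact 95% interval 25.2 to 152), an interval of counting error that does not hold the spread between mice.

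Between GFP+ and peripheral GFP- RPE, the fitted log2 fold change of Upk1b was 4.34 (standard error 1.35), given as a description. It was 5.78 without the peripheral library of mouse 2, and 6.51 with the replicate block. Within mice, GFP+ RPE was 16.6-fold above peripheral GFP- RPE in mouse 1 and 10.2-fold in mouse 2. In mice 4, 5 and 7, where the peripheral pool had no count, it was at least 79.4-fold, at least 114-fold and at least 230-fold above the floor. The order was therefore the same in 5 of 5 mice.

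Between GFP+ and central GFP- RPE, the comparison in which the family was noticed, both expressed members stood far apart. The fitted log2 fold change was 9.38 (standard error 1.24) for Upk1b and 5.69 (standard error 1.43) for Upk3b. Upk1b summed to 10917 counts in GFP+ RPE and 6 in central GFP- RPE, a ratio per scaled total of 1049. For Upk3b the ratio was 56.6, and nearly all of the 410 central counts were those of mouse 4. Without that library the log2 fold change of Upk3b was 10.75, and that of Upk1b was 10.49 without the central library of mouse 5. Upk1b passed the filter on low counts only through the GFP+ libraries. As background, the fit called 0.0431% of 9286 genes, with 539 at an unadjusted p under 0.05 and 202 called by DESeq2, and the groups did not overlap, with GFP+ RPE higher, for 0.862%. The called genes were Tubb4a, Padi2, Wfikkn2 and Upk1b, whose values led to the choice of the family, so that nothing is read from its place among them.

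The other 3 members were not detected in nearly all libraries at this depth. Upk1a, the second tetraspanin, had 136 counts (5.28 CPM) in the GFP+ library of mouse 1 and at most 1 count in the other 16. Upk2, the partner of UPK1A, had 10 counts (0.841 CPM) in the central library of mouse 1 and 0 elsewhere (exact permutation test of peripheral against central GFP- RPE, p = 1.0). With a single library above 0 that test could not have given a low p, and nothing is read from it. Upk3a, the bladder partner of UPK1B, had 0 counts in all 17 libraries, which allows up to 0.116 to 0.554 CPM per library. The library with Upk1a and the one with Upk2 were different pools of mouse 1, so that no pool held both members of that pair.

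Per length of exon the order of the expressed members in GFP+ RPE was Upk3b and then Upk1b. Upk3b had 97.3 ± 22.9 CPM per kb (SD, n = 6), which placed it at rank 424 of 21824 genes with a known length, and Upk1b had 39.9 ± 27.9 CPM per kb (SD, n = 6), at rank 1008. The ratio of Upk3b to Upk1b per kb ranged from 0.842 in mouse 3, where Upk1b was the higher, through 1.67, 2.41, 2.64 and 7.83 in mice 2, 1, 7 and 5 to 18.8 in mouse 4. In the peripheral GFP- pools that held both it was 3.56 in mouse 1 and 3.63 in mouse 2. In peripheral GFP- RPE, Upk3b was at rank 1642 with a mean of 20.3 CPM per kb, and Upk1b at rank 6885 with 2.00 CPM per kb. Of all 51287 uroplakin counts in GFP+ RPE, 78.4% were Upk3b, 21.3% Upk1b and 0.265% Upk1a, and of 6564 in peripheral GFP- RPE, 94.0% were Upk3b and 6.02% Upk1b.

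**Figure D3:**
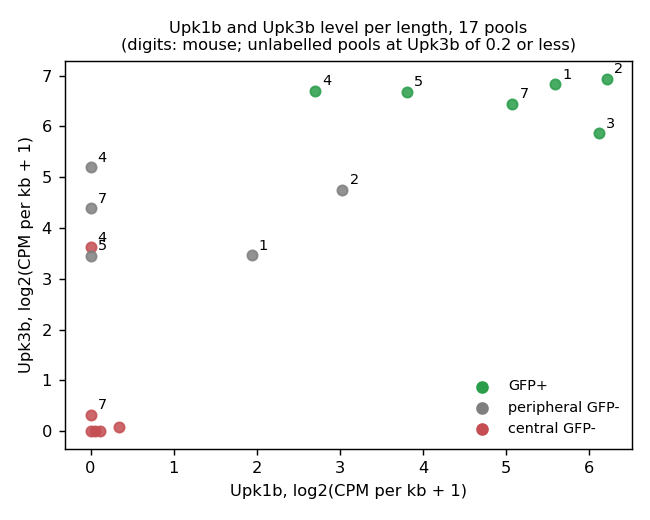
Upk3b against Upk1b in each of the 17 pools, both as log2(CPM per kb + 1), with the digit giving the mouse. GFP+ pools lie at the top over a wide range of Upk1b, peripheral GFP- pools lie below them with Upk1b in mice 1 and 2 only, and central GFP- pools lie near the origin except that of mouse 4, which has Upk3b without Upk1b.

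Whether family members rose in the same pools was read from their counts. Above the floor of 3 counts, Upk1b was found in 8 libraries, and all 8 also held Upk3b. Upk3b was found in 13 libraries, 5 of which lacked Upk1b: the peripheral ones of mice 4, 5 and 7 and the central ones of mice 4 and 7. The remaining 4 libraries, all central, held neither. Over all 17 libraries the correlation of log2(CPM + 1) between Upk1b and Upk3b was r = 0.728, a description that holds the difference between the groups, and 43 genes were more like Upk1b and 47 more like Upk3b than the other member was.

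Within the 6 GFP+ libraries no relation between the levels of Upk1b and Upk3b was detectable. Pearson's r of log2(CPM + 1), the scale of each r here, was -0.230 (exact permutation test, p = 0.744). Spearman's rho was 0.20 (exact permutation test, p = 0.714), and r was -0.0604 without the 2 libraries farthest from the median of Upk1b. Against Serpine3, whose reporter marked these cells, r was 0.247 for Upk1b (exact permutation test, p = 0.642; rho 0.371, p = 0.497; r without the 2 farthest libraries 0.363). For Upk3b against Serpine3, r was 0.646 (exact permutation test, p = 0.10; rho 0.771, p = 0.103; r without the 2 farthest libraries 0.869). Adjusted over these 3 relations by the Benjamini-Hochberg method, the exact permutation p of r was 0.744, 0.744 and 0.300, and that of rho 0.714, 0.714 and 0.308, so that none passed. Each run of animal numbers holds 3 GFP+ libraries, too few for a value within runs.

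The genes whose levels over the 17 libraries were most like those of each expressed member were taken by Pearson's r of log2(CPM + 1) among 10658 genes. Most like Upk1b were Ecrg4, a gene of a secreted peptide (r = 0.937), Serpine3 (0.888), Tyrp1, a melanosomal enzyme (0.861), Tubb4a, a beta-tubulin (0.857), and Bcan, the brevican core protein of extracellular matrix (0.856). Ecrg4 had 13.4 ± 4.99 CPM in GFP+ RPE (SD, n = 6), 0 counts in all central libraries and, in the periphery, 85 counts in mouse 2, 19 in mouse 4 and 0 in the others. Its peripheral pattern was thus not that of Upk1b, which had 106 counts in mouse 1 and 0 in mouse 4. Tubb4a in the periphery was highest in mouse 4, with 182 counts, where Upk1b was at 0.

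Most like Upk3b were Htr3a, a subunit of the serotonin-gated channel (r = 0.933), Il17re, a receptor subunit for interleukin 17C (0.895), Rnaset2a, an RNase T2 gene (0.871), Tyrp1 (0.869) and Lgi1, a secreted leucine-rich protein (0.852). Htr3a had 543 ± 173 CPM (SD, n = 6) in GFP+ RPE, 87.2 ± 36.0 CPM (SD, n = 5) in peripheral GFP- RPE and 11.6 ± 18.2 CPM (SD, n = 6) in central GFP- RPE. The central library of mouse 4, where Upk3b had 401 counts, also had 401 counts of Htr3a and 60 of Tyrp1, but 0 of Upk1b, Serpine3, Ecrg4 and Tubb4a. Htr3a was also present in the central library of mouse 2, with 534 counts, where Upk3b had 0. The lists changed with the measure of likeness. With Spearman's rho in place of Pearson's r, 2 of the 5 genes of Upk1b and 3 of the 5 of Upk3b stayed among the 5 most alike, Tubb4a falling to rank 68 and Lgi1 to rank 40. With log2(CPM + 0.1), 2 of the 5 of Upk1b and all 5 of Upk3b stayed. All of these orders rest on the difference between groups. Within the 6 GFP+ libraries alone, r with Upk1b was 0.585 for Ecrg4 (rank 1081), and r with Upk3b was 0.0732 for Htr3a (rank 4684).

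**Figure D4:**
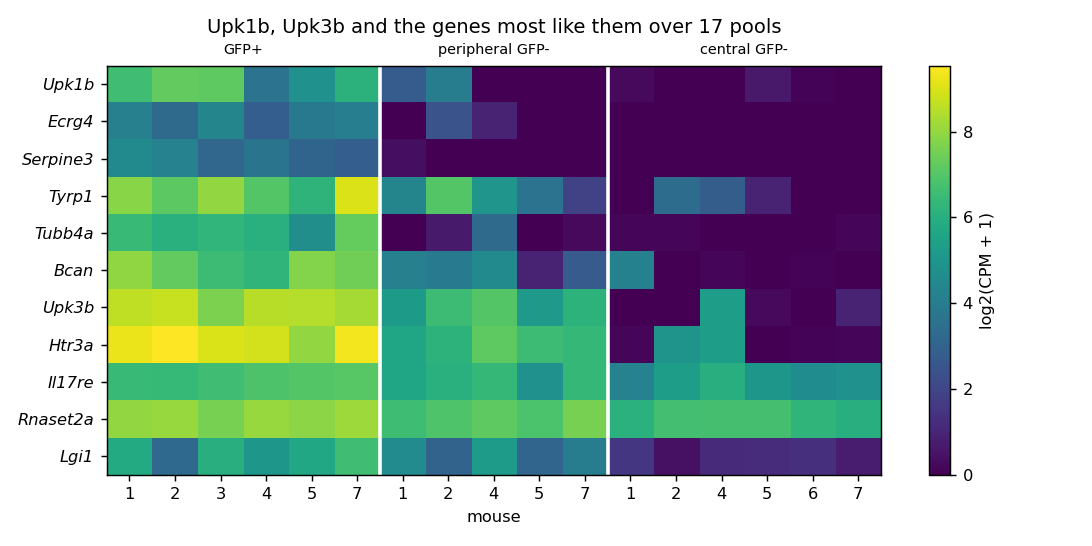
Upk1b and Upk3b with the 5 genes most like each, as log2(CPM + 1) in the 17 pools, ordered by group and mouse (Tyrp1 is among the 5 of both). All genes shown are above the floor in every GFP+ pool, while the peripheral and central pools in which single genes remain differ from gene to gene, as for Upk3b and Htr3a in the central pool of mouse 4.

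Upk3bl, next to Upk3b on chromosome 5, had 92.5 ± 33.6 CPM (SD, n = 6) in GFP+ RPE, 53.4 ± 22.9 CPM (SD, n = 5) in peripheral GFP- RPE and 67.3 ± 46.0 CPM (SD, n = 6) in central GFP- RPE. It was above the floor in all 17 libraries, and its log2 fold changes, 0.83 for GFP+ against peripheral, 0.46 for GFP+ against central and -0.36 for peripheral against central, were not called by edgeR, the first of them having an unadjusted p under 0.05. Of 29 other tetraspanin genes, 16 were tested between peripheral and central GFP- RPE, 18 between GFP+ and peripheral, and 15 between GFP+ and central. None was called by edgeR, which at 0%, 0.0396% and 0.0431% of all genes is the background. In the comparison of GFP+ with peripheral GFP- RPE, 2 had an unadjusted p under 0.05 from edgeR, both higher in GFP+ RPE, against 5.58% of all genes. Their median log2 fold changes were -0.10, -0.00 and -0.11, against 0.01, 0.01 and 0.00 over all genes tested. The most abundant were Cd63, a tetraspanin of late endosomes and melanosomes, with 1651, 1693 and 1705 CPM on average in GFP+, peripheral and central RPE, Tspan3 with 1405, 1032 and 1063 CPM, and Cd81 with 625, 636 and 686 CPM.

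Of 22 other genes of urothelial differentiation and of the trafficking of plaques, 6 were at or under the floor in all 17 libraries and 13 in all GFP+ libraries, among them the urothelial keratin genes Krt5, Krt13 and Krt20. The filter left 5, 4 and 4 for the same 3 comparisons, in the same order. None was called and none had an unadjusted p under 0.05 by edgeR, and the median log2 fold changes were -0.28, -0.21 and -0.38. The most abundant were Krt18 and Krt8, keratins of simple epithelia, and Vps33a, a gene of endosomal and melanosomal trafficking. Krt18 had 857, 862 and 1087 CPM on average in GFP+, peripheral and central RPE, and Krt8 had 130, 173 and 203 CPM. Krt7, a further keratin of the list, was above the floor in 6 GFP+, 5 peripheral and 4 central libraries, with means of 1.54, 1.57 and 0.857 CPM. The transcription factor gene Elf3 was above it in 3, 1 and 1 libraries of these groups, and Pparg, another, in 2, 2 and 3. Their means in the same order were 4.60, 0.912 and 0.182 CPM for Elf3 and 7.57, 1.06 and 6.23 CPM for Pparg. Some of the 13 genes at or under the floor in GFP+ RPE passed it in peripheral GFP- RPE. Krt20 and Grhl3 did so in 1 library each (34 and 75 counts), and Klf5 in 2 (up to 144 counts).

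Tissues in which uroplakins are also known were looked for by their markers. In GFP+ RPE, all 9 markers of ocular surface epithelium, Krt12, Krt5 and Krt14 among them, were at or under the floor in each library, with a summed level of at most 0.0704 CPM. All 5 markers of mesothelium, Msln and Wt1 among them, were also at or under it, with a summed level of at most 0.0755 CPM. In peripheral GFP- RPE the summed levels reached 2.14 CPM and 0.794 CPM, and in central GFP- RPE 1.66 CPM and 1.29 CPM. Krt12 was above the floor in 2 peripheral libraries (up to 38 counts, 1.83 CPM) and in no central one. Trp63, another ocular surface marker, was above it in 1 peripheral and 1 central library (up to 21 counts). The 12 genes of RPE identity summed to 70425 to 83865 CPM in GFP+ RPE, 56998 to 90319 CPM in peripheral GFP- RPE and 49473 to 99956 CPM in central GFP- RPE, ranges that overlap. Most of this sum was Ttr and Rgr, and the means of single genes of the list differed between the groups without a call. Lrat, an enzyme of the visual cycle, had means of 1054, 1669 and 1757 CPM in GFP+, peripheral and central RPE (edgeR adjusted p = 0.595 for GFP+ against peripheral and 0.174 for GFP+ against central). Rpe65, the isomerase of that cycle, had 5024, 7080 and 8327 CPM (edgeR adjusted p = 0.542 for GFP+ against central). The part of these differences in the uroplakin levels was not tested.

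The summed levels of markers of other neighbouring cells overlapped between the groups, although single markers differed in their means. The 7 macrophage and microglia markers summed to 35.6 to 111 CPM in GFP+ RPE, 96.7 to 146 CPM in peripheral and 68.4 to 116 CPM in central GFP- RPE, with Cx3cr1, C1qa, C1qb, Aif1 and Adgre1 at or under the floor throughout. Csf1r carried nearly all of it, with means of 59.9, 122 and 90.7 CPM (edgeR adjusted p = 0.562 for GFP+ against peripheral). The 9 markers of ciliary and iris epithelium summed to 9.81 to 69.3, 24.6 to 70.3 and 6.65 to 164 CPM, and the 10 of rods and cones to 1.80 to 35.8, 10.8 to 38.7 and 13.6 to 128 CPM, in the same order of groups. Of the latter, Pde6a, a rod phosphodiesterase gene, had means of 5.96, 12.6 and 45.2 CPM (edgeR adjusted p = 0.150 for GFP+ against central). The 7 endothelial markers reached at most 13.5, 26.0 and 16.3 CPM and the 6 of choroid stroma at most 0.563, 1.14 and 2.03 CPM. The 4 markers of melanocytes other than RPE summed to 46.2 to 87.0, 46.8 to 110 and 36.4 to 116 CPM. The 4 of Mueller glia summed to 578 to 753, 440 to 775 and 376 to 678 CPM, nearly all of it Glul. The part of these cells in the uroplakin levels was not tested.

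**Figure D5:**
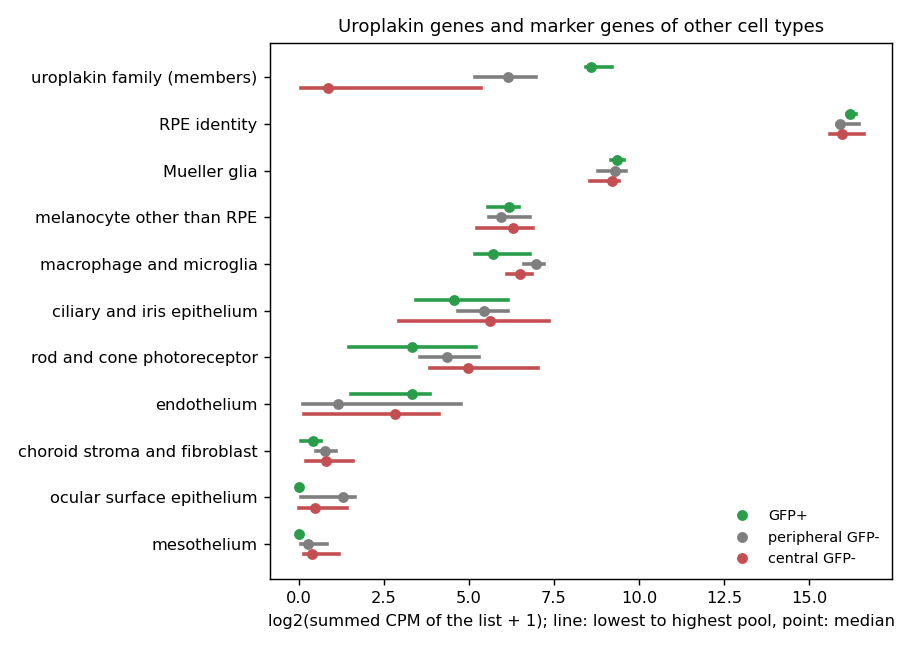
Summed level of the 5 uroplakin genes and of each marker list, as log2(summed CPM + 1), with a line from the lowest to the highest pool and a point at the median for GFP+ (6), peripheral GFP- (5) and central GFP- (6) pools. The uroplakin sum falls from GFP+ (345 to 583 CPM) to peripheral (35.2 to 125 CPM) to central pools (0.0550 to 40.0 CPM), while RPE identity overlaps and the markers of ocular surface epithelium and mesothelium lie near 0.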

How the data were processed

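RNA-seq libraries were made by SMART-Seq chemistry from 17 pools of hand-picked RPE cells. The authors deposited estimated counts per gene symbol, as whole numbers without normalization; the submitters' processing notes name fastp, Salmon and the build GRCm38.p6, while versions, annotation and strand setting are not given in the sources used here. PCR copies were counted, so the floors and the interval cover counting error of reads only, and not that of molecules. The labels give 10 to 15 cells per pool, and the methods give another range.

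Samples were grouped by the label for treatment. CPM were computed with TMM factors over 17 libraries. Groups were compared with edgeR 4.0.16 in R 4.3.3 (default filter on low counts, TMM, quasi-likelihood test, Benjamini-Hochberg adjustment), on the libraries of the 2 groups; DESeq2 1.42.0 was an alternative. Calls needed an adjusted p under 0.01 with a log2 fold change beyond 1 in either direction. Single genes were compared between peripheral and central GFP- RPE by exact permutation with SciPy 1.17.1 under Python 3.11.15, without regard to the pairing by mouse and without adjustment over genes. The standard error is the absolute log2 fold change divided by the square root of the quasi-likelihood F. Lengths are the union of exons in GENCODE M21, found for 21824 of 22253 symbols (98.1%); promoters and their positions are from RefSeq, with a window for 3 of the 5 members. The filter kept 1, 2 and 2 of the 5 members in the 3 comparisons. All 17 columns were matched by name and 0 were left out.

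Libraries with the same mouse number come from the same animal by the labels, which pairs them. Within a pair, deviations from the mean of the group correlated at -0.0195 to 0.0922, and 0 of 15 pairs exceeded 0.1. A check for libraries deposited more than once found none (highest correlation 0.924 in 136 pairs). The procedure was tested on simulated counts with the same spread for every gene. That test did not copy genes present in some pools of a group and absent from others, such as Upk1b, and does not cover them.

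The members and the gene lists were chosen with earlier results of these data known. The genes named are all members; of the tetraspanin, urothelial and uroplakin-like lists, each called gene and the 3 most abundant; the 5 genes most like each member with at least 10 counts in 3 libraries; and the defining genes of marker lists. Vim, Aplp1, Padi2, Wfikkn2, Krt7, Krt20, Grhl3, Klf5, Elf3, Pparg, Trp63, Lrat, Rpe65, Csf1r and Pde6a were named after their values were seen.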

Additional observations from a re-analysis of the deposited data

Results flagged for a closer look

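Among 45 groups of values examined, 11 held a library that stood far from the rest of its group by Dixon's test at the 95% level. Chance gives this in about 1 group in 20 where values follow a normal distribution. CPM with many values at or near 0 need not do so, and the rate was not checked for them. That rate does not apply to 5 of the 11, Upk1a in each group, Upk2 and Serpine3, where every other library of the group was at 0, so that any count would be flagged. Nor does the rate apply to groups with every library at 0, such as Upk2 in GFP+ RPE, which could not be flagged. Of the uroplakin genes, Upk3b was flagged at 40.0 CPM in the central GFP- library of mouse 4, against at most 0.887 CPM in the other 5. Upk1a was flagged at 5.28 CPM in the GFP+ library of mouse 1, at 0.0794 CPM in the peripheral library of mouse 5 and at 0.0550 CPM in the central library of mouse 2, the last 2 being single counts. Upk1b was flagged at 0.554 CPM, or 3 counts, in the central library of mouse 5, and Upk2 at 0.841 CPM, or 10 counts, in the central library of mouse 1.

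Of the genes most like Upk1b and Upk3b, Bcan was flagged at 17.5 CPM in the central library of mouse 1. In peripheral GFP- RPE, Ecrg4 was flagged at 4.40 CPM and Tyrp1 at 127 CPM in mouse 2, Serpine3 at 0.279 CPM in mouse 1 and Tubb4a at 8.76 CPM in mouse 4.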

How the results depend on the processing

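The direction of Upk1b and Upk3b was the same in all fits run. The numbers of genes called moved most. With DESeq2 they were 29 between peripheral and central GFP- RPE (0 with edgeR) and 67 between GFP+ and peripheral GFP- RPE (4 with edgeR). Between GFP+ and central GFP- RPE DESeq2 called 202 (4 with edgeR). Of the 29, 18 were higher and 11 lower in the periphery. In GFP+ RPE, 37 of the 67 were higher and 30 lower, and 82 of the 202 were higher and 120 lower. With the mouse as a replicate block, which pairs libraries of 1 animal, edgeR called 0, 0 and 56 genes (1 of the 56 higher and 55 lower in GFP+ RPE, whereas all 4 without the block were higher), and 0, 1 and 1 where the animal run was a covariate. With all 3 groups in the fit it called 0 between GFP+ and peripheral GFP- RPE. Leaving out each library in turn gave 0 to 5 calls between GFP+ and peripheral and 1 to 3 between GFP+ and central GFP- RPE. The cause was not tested. Median-of-ratios scaling and no filter kept each number of calls within 1.5 times. Counts of 0 allow up to 0.554 CPM in the shallowest library after scaling, which limits what can be said of Upk1a, Upk2 and Upk3a.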
